A study of Mus musculus with 23 samples.

Results

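The SLAM family genes Slamf1, Cd48, Ly9, Slamf6, Slamf7, Slamf8 and Slamf9, together with Sh2d1b1, Sh2d1b2 and Sh2d1a, which encode the small adaptors that bind these receptors, were followed through 23 RNA-seq libraries of sorted dendritic cells (DCs). These 10 genes (7 receptors and 3 adaptors) were found by symbol among the 47729 gene identifiers of the count table. The members were chosen by measured values in part, because the set was built around Sh2d1b1 after this gene had stood out as higher in untreated DC1b and DC2 cells than in untreated DC1a cells. The levels of all members in untreated mice are therefore given as a description with no test, and Sh2d1b1 is not tested between TLI and untreated mice. The receptor genes Cd244a and Cd84, which lie in the same gene cluster, are not among the 10 and are given beside them.

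The cells came from the spleens of wild type Balb/C mice, and each library holds cells of 1 subset from 1 pool of mice. By the sorting gates, DC1a cells were CD8hi CD172-, DC1b cells were CD8Int CD172+, DC2 cells were CD8lo CD172hi, and DC3 cells were CD8- CD172lo. Untreated mice gave 2 pools and TLI treated mice gave 4 pools, with 1 library of each subset per pool, and DC2 cells of TLI pool 2 were not analysed here. The labels leave TLI unexpanded, and the abbreviation is widely used for total lymphoid irradiation. Both untreated pools and TLI pools 1 and 2 carry the label of batch 1, and TLI pools 3 and 4 that of batch 2. The study's methods give an age and sex for other mice that it used, but not expressly for wild type Balb/C mice. No interval after treatment was given in the sources used here. All mice were wild type, so no group carried a deletion or transgene. The labels name pools of mice without giving the number of mice in each, so the spread between libraries is a spread between pools and not between single mice.

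SLAM receptors are immunoglobulin-like surface proteins of blood cells, and most of them bind the same receptor on a neighboring cell. CD48 and CD244 are the exception, because they bind each other. Several of the receptors carry tyrosine switch motifs in their tails, and these motifs are read by the SAP family of adaptors, which consist of little more than an SH2 domain. SAP, the product of Sh2d1a, recruits the kinase Fyn and is best known from T cells and NK cells. EAT-2, the product of Sh2d1b1, is known from NK cells and from antigen presenting cells, and Sh2d1b2 encodes its close relative ERT in rodents. The BALB/c and C57BL/6 strains carry different haplotypes of the SLAM gene cluster, so reads of these mice were counted against a reference genome of the other haplotype.

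On the GRCm38 assembly the 9 receptor genes, Cd244a and Cd84 included, lay on chromosome 1 between 171559193 and 172590568. Sh2d1b2 (ENSMUSG00000073494, 170232749 to 170253608, plus strand) and Sh2d1b1 (ENSMUSG00000102418, 170277320 to 170286769, plus strand) lay on the same chromosome with 23711 bases between them, 1272 kb before the cluster. Sh2d1a (ENSMUSG00000005696) lay on chromosome X from 42502453 to 42529330. The longest transcripts of Sh2d1b1 and Sh2d1b2 were 90.1% identical over 2438 aligned bases, and 240 of the 2469 windows of 76 bases in Sh2d1b1 (9.72%) occurred unchanged in Sh2d1b2. A single read from these windows cannot be placed on 1 of the pair of genes. Reads were sequenced as mates, and a mate outside the windows can place such a fragment. Low values of Sh2d1b2 remain uncertain where neither mate does so. Counting was not stated to use strand, and Sh2d1a shares 1465 exon bases with Tenm1 on the opposite strand, while Slamf7 shares 423 with the antisense gene Gm37787. The values of these genes carry that uncertainty.

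The sequences before the starts of Sh2d1b1 and Sh2d1b2 are shown because this neighboring pair of near copies differed most in level among the adaptors. They are taken from RefSeq (GRCm38.p6, plus strand), which gave a promoter for 8 of the 10 members, at chr1:170277068-170277317 for Sh2d1b1 and at chr1:170232621-170232748 for Sh2d1b2, the latter ending where the other annotation begins the gene. Capitals mark TGANTCA, a loosened form of the AP-1 site TGA(C/G)TCA. This pattern reads the same on both strands and overlapped none of the other motifs searched. The stretch marked in Sh2d1b2, TGAATCA, matches the loosened form only.
Sh2d1b1: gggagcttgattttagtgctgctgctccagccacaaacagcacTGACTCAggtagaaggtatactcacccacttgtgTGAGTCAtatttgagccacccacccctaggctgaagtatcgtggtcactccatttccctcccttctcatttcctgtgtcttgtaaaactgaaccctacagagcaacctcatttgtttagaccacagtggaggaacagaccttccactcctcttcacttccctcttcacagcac
Sh2d1b2: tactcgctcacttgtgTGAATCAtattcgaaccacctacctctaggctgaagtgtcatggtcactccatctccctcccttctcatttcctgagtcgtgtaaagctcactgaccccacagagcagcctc
Over the whole windows of 250 bases, the pair was 90.5% identical across 189 aligned bases. The motif stood at -207 to -201 and at -173 to -167 from the RefSeq start of Sh2d1b1, and at -234 to -228 from that of Sh2d1b2. The site at -173 in Sh2d1b1 lines up with that at -234 in Sh2d1b2. The window of Sh2d1b2 does not reach the counterpart of the site at -207, so the number of sites cannot be compared between the pair. Among the other members it was found in Slamf7, at -42 to -36. It occurred in 6.75% of all 32851 RefSeq promoters of that length. The other motifs searched were GAGGAAGT (PU.1), found before Slamf9 and in 2.44% of all promoters, CACCTG (an E-box), found before Slamf1 and in 17.2%, the interferon-stimulated response element, found before Slamf8 and in 2.98%, and the ETS-IRF composite, found before no matched member and in 2.3%. Each was sought on both strands. A match gives the letters only and not binding.

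Depth ran from 19256447 to 36997890 counts per library (untreated 19256447 to 28688091, TLI 21107794 to 36997890), and 3 counts, taken as the floor of detection, were worth 0.0862 to 0.147 CPM (counts per 1000000 counts of the library total after TMM scaling, as for all values here). Floors cover counting error only, since amplified reads are not independent molecules. The sorted subsets were checked against marker lists by their summed CPM. The 8 cDC1 markers summed to 3366 to 6269 in DC1a libraries and to 130 to 282 in DC2 libraries, and Sirpa, which encodes CD172a, was at most 0.804 CPM in DC1a and 8.79 to 282 CPM in DC2 cells. Sirpa did not set TLI DC1b cells (162, 145, 5.51 and 7.26 CPM in pools 1 to 4) apart from TLI DC2 cells (34.0, 8.79 and 282 CPM in pools 1, 3 and 4). Untreated DC1b cells, at 11.6 and 81.0 CPM, were below untreated DC2 cells, at 237 and 176 CPM. Several libraries also had high sums for markers of other cell types. Such sums do not tell admixed cells from expression by the sorted cells. The 10 plasmacytoid DC markers summed to 5662 and 8304 in the untreated DC1b libraries and to at most 319 in the other 21. The NK cell list reached 4679 and 1261 in DC3 cells of TLI pools 1 and 2, the neutrophil list 1445 to 23408 in TLI DC1b cells, the monocyte list 10047 to 25705 in the same cells, and the erythroid list was at 129238, 69448, 44281 and 138351 in DC1a, DC1b, DC2 and DC3 cells of TLI pool 1. T cell, B cell, plasma cell and macrophage lists peaked at 379, 5704, 15726 and 2700, the cDC2 list was at 1022 to 1923 in TLI DC2 cells, and the list of genes shared by classical DCs was at 11732 or more in every library. The bearing of these markers on each result was not tested unless a value below addresses it. In such bulk libraries fewer cells that express a gene and less RNA per cell cannot be told apart.

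Across the 23 libraries, 6 of the 7 receptors were over the floor in every library, and the exception was Slamf1. Per kilobase of exon, the mean level was highest for Cd48 at 697 CPM per kb, 14.4 times that of Slamf7 at 48.4 CPM per kb. Slamf8 (28.7 CPM per kb), Sh2d1b1 (23.7), Slamf9 (21.5) and Cd244a (20.2) formed a middle group whose libraries overlapped widely. Ly9 (7.34 CPM per kb), Cd84 (2.56) and Slamf6 (2.27) were lower, and Sh2d1a (0.636), Sh2d1b2 (0.451) and Slamf1 (0.147) were lowest. All values that follow are CPM without correction for length and compare groups for the same gene.

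The subsets were first compared within TLI mice by the quasi-likelihood test of edgeR. The contrast that brought up Sh2d1b1 used untreated libraries, but the members were picked with earlier results of the series known, TLI libraries included, so these tests are not independent of the choice. The test was run with p adjusted by Benjamini and Hochberg's method over all 19597 genes tested and a threshold of 0.05. Between DC1b and DC1a cells 2 of the 10 members were called (Sh2d1b1 higher and Slamf7 lower in DC1b), where 1.42% of all genes were called. DC2 against DC1a cells gave 2 members, Sh2d1b1 and Cd48, against 3.4% of all genes, and DC3 against DC1a cells gave Sh2d1b1 alone, against 0.75% of all genes. The median log2 difference of the members was 0.22, 0.45 and 0.16 in these comparisons, beside medians of 0.02, 0.02 and -0.01 over all genes. Sh2d1b1, around which the set was built, enters each of these counts and medians. The only other calls were Slamf7 in DC1b cells and Cd48 in DC2 cells. The counts are therefore not read as a result about the family against the shares of all genes. No member was called between DC2 and DC1b, DC3 and DC1b, or DC3 and DC2 cells, where edgeR called 0.214%, 1.11% and 1.37% of all genes. At an unadjusted p under 0.05 these 3 comparisons held 1, 2 and 1 members, and DESeq2 called 0, 1 and 1, the latter being Sh2d1b1 in each case. DESeq2 called 975 to 2450 of all genes per TLI subset pair.

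**Figure D1:**
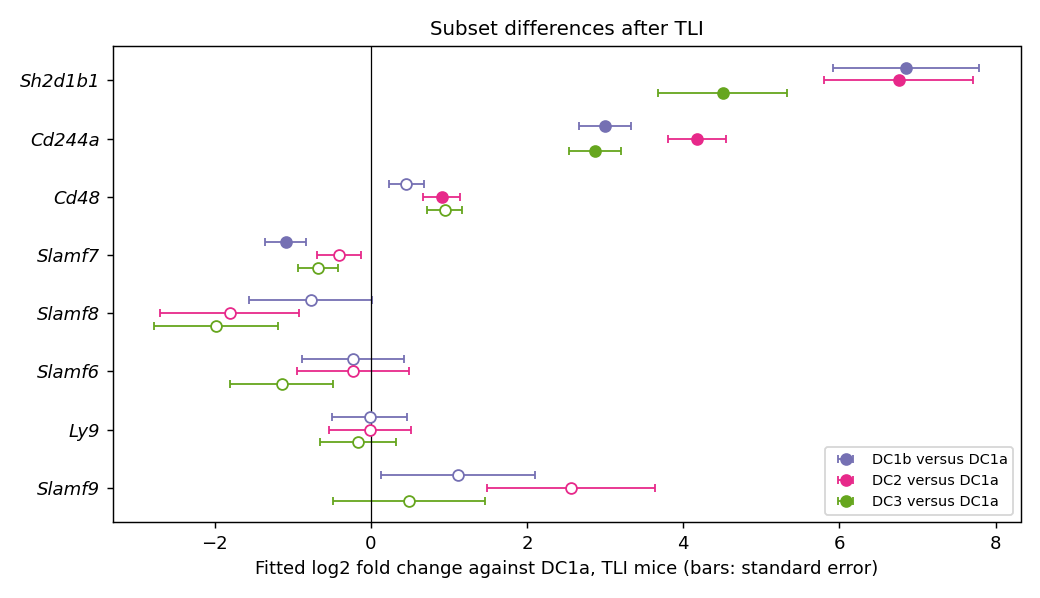
Fitted log2 fold changes of 8 genes in DC1b, DC2 and DC3 cells against DC1a cells of TLI mice, with bars of 1 standard error, where filled symbols passed an adjusted p of 0.05 in the edgeR fit. Sh2d1b1 (4.51 to 6.85) and Cd244a (2.87 to 4.18) are the 2 genes filled in all 3 comparisons.

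The adaptor Sh2d1b1 separated DC1a cells from the other subsets. In untreated mice it had 0 counts in both DC1a libraries, which allows up to 3 counts in each, and was at 67.4 and 100.2 CPM in DC1b cells and at 237 and 170 CPM in DC2 cells. Untreated DC3 cells had 1.1 and 12.2 CPM. The same order of DC1a against DC1b and DC2 was present after TLI. TLI DC1a cells of pools 1 to 4 had 1.78, 2.41, 0.386 and 0.129 CPM, which stand for 44, 61, 12 and 4 counts. TLI DC1b cells had 68.7, 78, 129 and 138 CPM. TLI DC2 cells of pools 1, 3 and 4 had 81.8, 62.7 and 137 CPM. TLI DC3 cells lay between, at 43.7, 21.9, 18.3 and 12.3 CPM. Every DC1b, DC2 and DC3 library of TLI mice was above every DC1a library, and the DC3 libraries were all below those of DC1b and DC2 cells.

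In TLI mice Sh2d1b1 was higher in DC1b than in DC1a cells by 6.85 on the log2 scale (SE 0.94, edgeR adjusted p = 0.000588). DC2 cells were higher than DC1a cells by 6.76 (SE 0.95, adjusted p = 0.000526), and DC3 cells by 4.51 (SE 0.83, adjusted p = 0.0127) in the same edgeR fit. The mean of DC1b cells was 35.0 times that of DC1a cells within batch 1 and 518 times within batch 2, where the DC1a libraries held only 12 and 4 counts. For DC2 cells the within-batch ratios were 39.1 and 388, and for DC3 cells 15.6 and 59.3. Leaving out DC1a cells of TLI pool 3 cost the DC3 difference its call, at 4.21 (edgeR adjusted p = 0.073). DC2 against DC1b cells missed the threshold (log2 difference -0.10, SE 0.76, edgeR adjusted p = 0.994), with an error too wide to show equal levels. DC3 cells against DC1b cells (-2.34, SE 0.76, edgeR adjusted p = 0.203) and against DC2 cells (-2.25, SE 0.79, edgeR adjusted p = 0.225) missed the threshold, although no libraries overlapped.

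Marker sums of other cell types stood beside these differences. The 8 monocyte markers followed the same order as Sh2d1b1 in TLI mice, with sums of 673 to 1589 CPM in DC1a, 10047 to 25705 in DC1b, 8021 to 12025 in DC2 and 2101 to 3705 CPM in DC3 cells. In untreated mice they summed to 859 and 870 CPM in DC1a, 3398 and 5380 in DC1b, 5132 and 5920 in DC2, and 1998 and 2918 CPM in DC3 cells. NK cells express EAT-2, and the 10 NK markers summed to 223 to 467 CPM in TLI DC1a, 151 to 682 in DC1b, 268 to 562 in DC2 and 169 to 4679 CPM in DC3 cells. The NK receptor gene Ncr1 was at 0 in 7 of the 11 DC1b and DC2 libraries, where 2 to 6 of the 10 NK markers were over the floor and Sh2d1b1 was at 62.7 to 237 CPM. In DC3 cells Sh2d1b1 and Ncr1 were both highest in TLI pool 1 (43.7 and 1152 CPM). In DC3 cells of TLI pools 3 and 4 Ncr1, Prf1, Gzmb and Eomes were at 0, and 6 and 4 of the 10 NK markers were over the floor. Among those over the floor, Nkg7 was at 24.8 and 49.4 CPM and Gzma at 12.9 and 35.1 CPM. Whether these markers came from such cells or from the sorted cells was not tested, nor was their part in the level of Sh2d1b1.

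**Figure D2:**
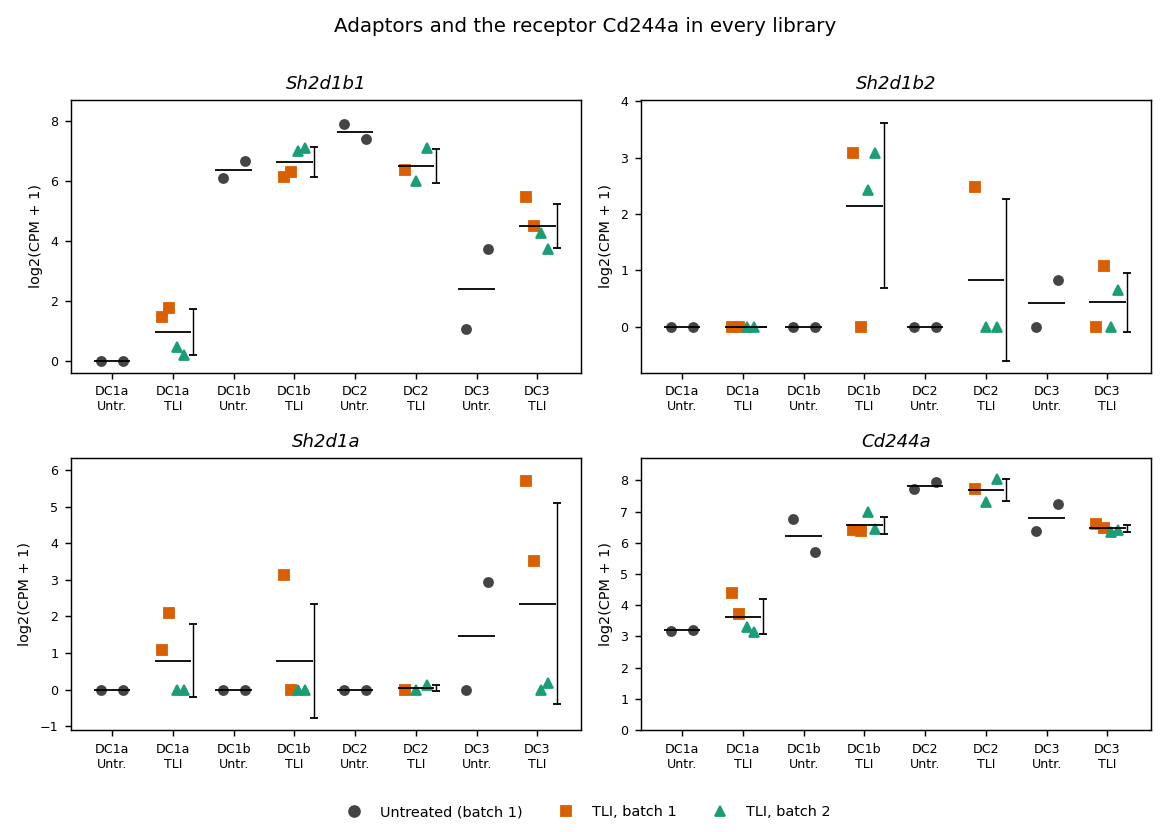
Levels of the 3 adaptor genes and of Cd244a as log2(CPM + 1) in each of 23 libraries by subset and treatment, with a horizontal line at the group mean and, for groups of 3 or 4, a bar of 1 SD that may reach below 0. Sh2d1b1 and Cd244a are lowest in the DC1a groups, and Sh2d1b2 and Sh2d1a are at 0 in most libraries.

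Sh2d1b2, which encodes ERT, was at 0 in 16 of 23 libraries and over the floor in 7. TLI DC1b cells of pools 1 to 4 had 7.47, 0, 4.37 and 7.49 CPM, and TLI DC2 cells of pools 1, 3 and 4 had 4.57, 0 and 0 CPM. The remaining libraries over the floor were DC3 cells, with 1.1 and 0.576 CPM in TLI pools 2 and 4 and 0.785 CPM in untreated pool 2. No DC1a library of either treatment had a count. In the 7 libraries over the floor, Sh2d1b2 had 3.4% to 10.9% of the count of Sh2d1b1, and in 7 other libraries it was at 0 beside more than 1000 counts of Sh2d1b1. It was not called in any comparison by edgeR.

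Sh2d1a, which encodes SAP, was over the floor in 7 libraries and at 0 in 15. It was highest in DC3 cells of TLI pools 1 and 2, at 51.0 and 10.4 CPM, against 0 and 0.144 CPM in pools 3 and 4. TLI DC1b cells had 7.76 CPM in pool 1 and 0 in the other pools, and TLI DC1a cells had 1.13, 3.24, 0 and 0 CPM. Untreated DC3 cells had 0 and 6.74 CPM, and the other untreated libraries had 0. The libraries with the most Sh2d1a also had the most NK cell transcripts, since Ncr1 was at 1152 and 328 CPM in DC3 cells of TLI pools 1 and 2. Cd3e, the T cell receptor signaling gene, was at 28.3 and 12.9 CPM in those libraries and at 0 in DC3 cells of pools 3 and 4. Untreated DC3 cells of pool 1 had 30.3 CPM of Ncr1 and no Sh2d1a. Those of pool 2, with 6.74 CPM of Sh2d1a, had 45.9 CPM of Ncr1, and Cd3e was at 0 in both pools. Whether these transcripts came from admixed or from sorted cells was not tested, nor was their part in the level of Sh2d1a.

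Cd48 encodes the lipid-anchored ligand of CD244 and was the most abundant member per kilobase in every group. TLI DC1a cells had 361, 476, 735 and 812 CPM in pools 1 to 4, with both pools of batch 1 below both of batch 2. DC1b cells of TLI mice had 862, 788, 722 and 729 CPM. DC2 cells of TLI mice had 760, 1464 and 1265 CPM in pools 1, 3 and 4. DC3 cells of TLI mice had 1190, 838, 1060 and 1369 CPM, all above the DC1a libraries. Untreated libraries lay between 491 and 1145 CPM. Cd48 was higher in TLI DC2 than DC1a cells by 0.91 on the log2 scale (SE 0.24, adjusted p = 0.0475, edgeR), and DC2 cells of pool 1 overlapped the DC1a range. The ratio of DC2 to DC1a means was 1.82 within batch 1 and 1.76 within batch 2. The call was lost with the mouse pool as a block (edgeR adjusted p = 0.0885). It was also lost on leaving out any of 16 libraries (edgeR adjusted p up to 0.164) and was kept only without 1 of TLI DC1b pools 1 to 4, DC2 pool 1 or DC3 pools 1 and 2. The difference of DC3 from DC1a cells was as large, at 0.95 (SE 0.23), without passing the threshold (edgeR adjusted p = 0.073). For DC1b cells the difference was 0.46 (SE 0.23, edgeR adjusted p = 0.392), and the ratio to DC1a cells was 1.97 within batch 1 and 0.938 within batch 2.

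Cd244a, the receptor of CD48, shared with Sh2d1b1 its low level in DC1a cells. The genes differed in DC3 cells, where Cd244a overlapped DC1b cells and Sh2d1b1 was below every DC1b library of the same treatment. TLI DC1a cells had 19.8, 12.3, 8.85 and 7.79 CPM. TLI DC1b cells had 84.8, 82.5, 125 and 85.6 CPM, and TLI DC3 cells had 96.9, 87.9, 80.3 and 83.8 CPM. TLI DC2 cells were highest, at 210, 158 and 262 CPM. No DC1a library reached the other subsets. In the edgeR fit Cd244a was higher than in DC1a cells by 3.00 in DC1b cells (SE 0.34, adjusted p = 5.52e-05), by 4.18 in DC2 cells (SE 0.37, adjusted p = 2.46e-06) and by 2.87 in DC3 cells (SE 0.33, adjusted p = 0.000191). The ratios to DC1a cells within batches 1 and 2 were 5.22 and 12.6 for DC1b, 13.1 and 25.2 for DC2, and 5.76 and 9.86 for DC3 cells. The monocyte sums given with Sh2d1b1 were also lowest in DC1a cells, and their part in these differences was not tested. In untreated mice, given as a description, DC1a cells were again lowest (8.1 and 8.34 CPM) and DC2 cells highest (212 and 244 CPM), while DC1b (108 and 50.7 CPM) and DC3 cells (81.9 and 149 CPM) overlapped. Over the 23 libraries Pearson's r of Cd244a with Sh2d1b1 was 0.89 on log2 CPM, a description over libraries that share subsets and pools.

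Slamf7, whose product CRACC signals through EAT-2 in NK cells, had its highest mean among the TLI subsets in DC1a cells. TLI DC1a cells had 279, 378, 275 and 287 CPM. TLI DC1b cells had 208, 161, 123 and 91.2 CPM and did not overlap them. TLI DC3 cells were also below all DC1a libraries, at 194, 216, 200 and 151 CPM, whereas DC2 cells overlapped DC1a cells at 177, 313 and 166 CPM. Slamf7 was lower in DC1b than in DC1a cells by a log2 difference of -1.09 (SE 0.26, adjusted p = 0.0477, edgeR). DC1a cells had 1.78 times the mean of DC1b cells within batch 1 and 2.63 times within batch 2. With the mouse pool as a block the call was lost narrowly (edgeR adjusted p = 0.0515), and it was also lost when any of 20 libraries was left out in turn (edgeR adjusted p up to 0.153), with log2 differences between -1.26 and -0.93 over all 23. The libraries it could spare were DC1b cells of TLI pool 1 and DC2 cells of TLI pools 3 and 4. Untreated DC1a cells had 282 and 223 CPM and untreated DC1b cells had 107 and 172 CPM. Untreated DC2 cells, at 309 and 246 CPM, and untreated DC3 cells, at 246 and 292 CPM, overlapped DC1a cells. In untreated mice DC1b cells were thus lowest, and DC1a cells were not set apart from DC2 and DC3 cells. The differences of DC3 (-0.68, SE 0.26, edgeR adjusted p = 0.355) and DC2 cells (-0.41, SE 0.28, edgeR adjusted p = 0.479) from DC1a cells missed the threshold.

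Slamf8, a receptor with a short tail that lacks the switch motif and is known from macrophages, moved with batch in DC1a cells. TLI DC1a cells had 270 and 382 CPM in pools 1 and 2 and 55.0 and 64.2 CPM in pools 3 and 4. TLI DC1b cells had 63.3, 145, 31.5 and 83.9 CPM, TLI DC2 cells 71.4, 1.26 and 42.2 CPM, and TLI DC3 cells 18, 153, 5.35 and 23.1 CPM. DC1a cells had 3.8 times the mean of DC3 cells within batch 1 and 4.19 times within batch 2, but the fitted difference of DC3 from DC1a cells (-1.98, SE 0.79) missed the threshold with an edgeR adjusted p of 0.376. Against DC1b cells the ratio was 3.12 within batch 1 and 1.03 within batch 2. The erythroid markers of TLI DC1a cells also differed between batches, with 129238 and 25711 CPM in pools 1 and 2 and 391 and 171 CPM in pools 3 and 4, and their part in the Slamf8 values was not tested. Untreated cells had 108 and 135 CPM in DC1a, 120 and 101 in DC2, 52.2 and 38.8 in DC3, and 31.6 and 36.1 in DC1b.

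**Figure D3:**
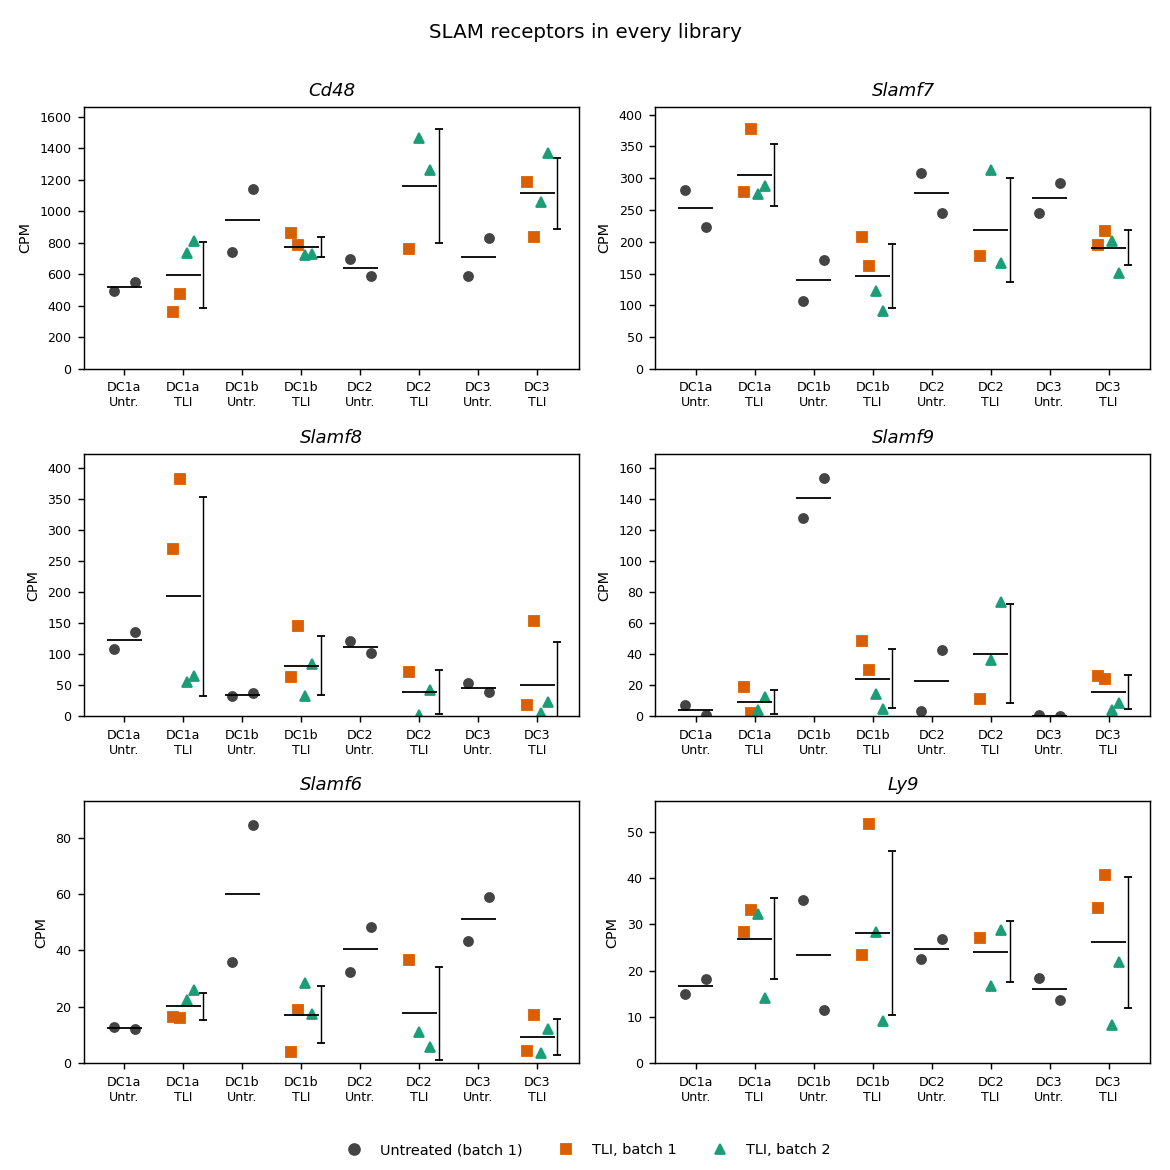
Levels of 6 SLAM receptors in CPM on linear axes from 0, with 1 symbol per library by subset, treatment and batch, a line at the group mean and a bar of 1 SD for groups of 3 or 4, cut off at 0 where it would pass below. Slamf7 is highest in DC1a cells of TLI mice, Slamf9 in untreated DC1b cells (128 and 153 CPM), and Slamf8 in DC1a cells of TLI batch 1 (270 and 382 CPM).

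Slamf9, the other receptor with a short tail, was highest in untreated DC1b cells, with 128 and 153 CPM. Untreated DC1a cells had 6.96 and 0.37 CPM, DC2 cells 3.13 and 42.4 CPM, and DC3 cells 0.274 and 0.143 CPM. The untreated DC1b libraries were also those with the plasmacytoid DC markers, where Siglech was at 982 to 1654 CPM against at most 38.2 CPM in the other untreated libraries. After TLI, DC1b cells had 48.2, 29.5, 14.1 and 4.42 CPM of Slamf9, at summed plasmacytoid DC markers of 244 to 281 CPM. TLI DC1a cells had 18.4, 2.05, 3.89 and 12.1 CPM, TLI DC2 cells 10.6, 36.2 and 73.6 CPM, and TLI DC3 cells 25.7, 23.8, 3.76 and 8.49 CPM. These groups overlapped, and no pair of TLI subsets was called for Slamf9 (edgeR adjusted p from 0.223 for DC2 against DC1a upward). The part of plasmacytoid DC transcripts in the level of Slamf9 was not tested.

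Slamf6, which encodes Ly108, ranged from 3.57 to 84.3 CPM. Untreated DC1a cells were low at 12.9 and 11.9 CPM, and the other untreated cells had 36.0 and 84.3 CPM in DC1b, 32.2 and 48.4 in DC2, and 43.2 and 58.8 in DC3. In TLI mice DC1a cells had 16.3, 15.9, 22.4 and 25.8 CPM and overlapped every other subset. TLI DC1b cells had 3.76, 18.7, 28.5 and 17.4 CPM, TLI DC2 cells 36.5, 11 and 5.53 CPM, and TLI DC3 cells 4.32, 17.2, 3.57 and 11.9 CPM. Ly9, which encodes CD229 and is carried by many lymphocytes, had 8.3 to 51.8 CPM over all libraries and group means between 16 and 28.2 CPM. Its fitted differences of the TLI subsets from DC1a cells lay between -0.16 and -0.01 on the log2 scale, with SEs of 0.48 to 0.53, which does not show equal levels.

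Slamf1, which encodes CD150, was at 0 in 12 of 23 libraries. Over the floor it was found in TLI DC1a cells of pools 1, 2 and 4 (7.73, 2.37 and 3.33 CPM), in untreated DC1a cells of pool 1 (2.33 CPM) and at 0.314 to 3.15 CPM in 5 libraries of other groups. It was called in no comparison by edgeR.

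TLI was then compared with untreated mice within each subset, over the 9 members other than Sh2d1b1. By edgeR, 0 members were called in DC1a, DC1b, DC2 and DC3 cells, where 0.0102%, 0.413%, 0.0612% and 0.0255% of all genes were called. Unadjusted p was under 0.05 for 1, 1, 1 and 2 members, and DESeq2 called 0, 1, 1 and 1, namely Sh2d1b2 in DC1b and DC2 cells, which had 0 counts in the untreated libraries, and Slamf9 in DC3 cells. DESeq2 called 719 to 1267 of all genes in these 4 comparisons. The medians over the members were 1.09, 0.17, 0.54 and 0.82 on the log2 scale, beside 0.15, 0.09, 0.02 and -0.05 over all genes, and fits of genes at 0 in 1 group enter these medians.

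Of the 36 pairs of member and subset, 9 had libraries that did not overlap between treatments (1 in DC1a, 2 in DC1b, 2 in DC2 and 4 in DC3 cells), none of them past the threshold. Over all tested genes, 13.2%, 19.9%, 25% and 13.5% did not overlap in DC1a, DC1b, DC2 and DC3 cells, a share that 4 of 9 in DC3 cells exceeds and that 1, 2 and 2 of 9 in the other subsets are near. In DC3 cells Slamf9 was at 25.7, 23.8, 3.76 and 8.49 CPM after TLI and at 0.274 and 0.143 CPM in untreated mice, a fitted log2 difference of 6.46 (SE 1.70, unadjusted p = 0.0014) with an edgeR adjusted p of 0.256. Its 2 highest values came from the TLI pools that share batch 1 with the untreated mice. Slamf6 in DC3 cells was at 3.57 to 17.2 CPM after TLI against 43.2 and 58.8 CPM, a difference of -2.41 (SE 0.80, edgeR adjusted p = 0.362). In the same cells Cd48 had 838 to 1369 CPM against 592 and 830 CPM (edgeR adjusted p = 0.603), and Slamf7 had 151 to 216 CPM against 246 and 292 CPM (edgeR adjusted p = 0.706).

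The remaining pairs lay in the other subsets. In DC1b cells Slamf6 was at 3.76 to 28.5 CPM after TLI against 36.0 and 84.3 CPM (-1.73, SE 0.85, edgeR adjusted p = 0.42), and Slamf9 was at 4.42 to 48.2 CPM against 128 and 153 CPM (-2.28, SE 1.15, edgeR adjusted p = 0.438). The plasmacytoid DC markers summed to 244 to 281 CPM in these TLI libraries and to 5662 and 8304 CPM in the untreated ones, and their part in either difference was not tested. In DC2 cells Cd48 had 760 to 1464 CPM against 697 and 589 CPM (edgeR adjusted p = 0.623), and Slamf8 had 1.26 to 71.4 CPM against 120 and 101 CPM (edgeR adjusted p = 0.963). DC1a cells held 15.9 to 25.8 CPM of Slamf6 against 12.9 and 11.9 CPM (edgeR adjusted p = 0.815). Whether the effect of TLI differed among subsets was tested with 3 degrees of freedom, and edgeR called 0 of the 9 members beside 0.0357% of all genes. Slamf9 had the smallest unadjusted p of the members, 0.00304 (edgeR adjusted p = 0.376), it was the 1 member under 0.05, and DESeq2 called it. DESeq2 called 392 of all genes for this differing effect.

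Sh2d1b1 itself, given with no test, was at 0.129 to 2.41 CPM in TLI DC1a cells against 0 counts in untreated DC1a cells, and at 62.7 to 137 CPM in TLI DC2 cells against 170 and 237 CPM. Its values in DC3 cells were 12.3 to 43.7 CPM after TLI and 1.1 and 12.2 CPM in untreated mice, and the DC1b libraries of both treatments overlapped.

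**Figure D4:**
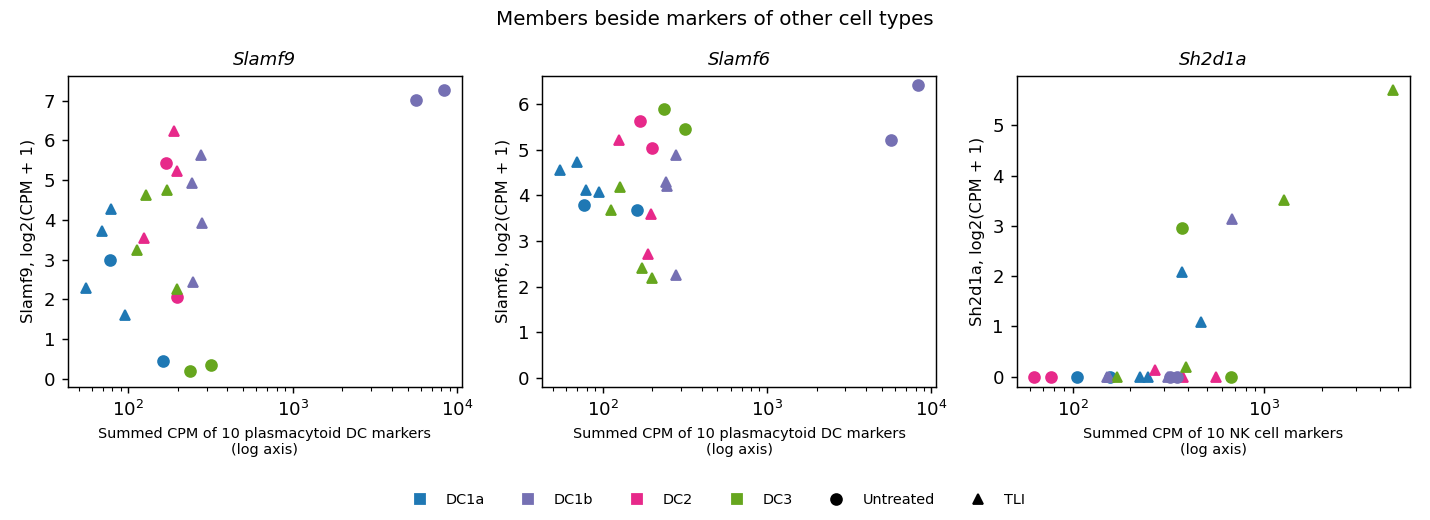
Slamf9 and Slamf6 against the summed CPM of 10 plasmacytoid DC markers, and Sh2d1a against that of 10 NK cell markers, per library on log axes (markers as CPM, members as log2(CPM + 1)). Slamf9 is highest in the 2 untreated DC1b libraries far to the right, and Sh2d1a is highest in DC3 cells of TLI pool 1, with an NK marker sum of 4679 CPM.

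The signaling partners of the family were followed with a list of 34 genes that held Cd244a and Cd84, the Src, Syk and Tec kinases, phosphatases and downstream enzymes. In TLI mice edgeR called 2 of the 34 higher in DC1b than in DC1a cells, 2 in DC2 cells and 1 in DC3 cells, and 0 lower, where it called 1.42%, 3.4% and 0.75% of all genes in either direction. Before adjustment, 7, 9 and 6 of them had p under 0.05. DESeq2 called 6 (4 higher, 2 lower), 7 (5 higher, 2 lower) and 2 (1 higher, 1 lower), among them Src, named after its values were seen, with a mean of 1.13 CPM in TLI DC1a cells, 0.0602 in DC1b cells and 0 in DC3 cells. Over all genes DESeq2 called 975 to 2450 per TLI subset pair, so its counts cannot be set against the edgeR shares. Beside Cd244a the edgeR call was Fgr, a Src family kinase of myeloid cells, at 2.17 to 16.8 CPM in DC1a, 46.0 to 204 in DC1b and 96.1 to 169 CPM in DC2 cells. Fgr was higher than in DC1a cells by 4.53 in DC1b cells (SE 0.64, adjusted p = 0.000608) and by 4.52 in DC2 cells (SE 0.65, adjusted p = 0.000478, edgeR). In DC3 cells it was at 7.94 to 32.0 CPM, lower than in DC1b cells by -3.01 (SE 0.60, edgeR adjusted p = 0.0173) and than in DC2 cells by -3.00 (SE 0.61, edgeR adjusted p = 0.017). Both DC3 calls were lost without DC3 cells of TLI pool 3 or of TLI pool 4, and that against DC2 cells also without DC2 cells of pool 3, at edgeR adjusted p values up to 0.0964. Monocytes also express Fgr, and the monocyte markers were at 10047 to 25705 CPM in TLI DC1b cells and at 673 to 1589 CPM in TLI DC1a cells, and their part was not tested. In DC2 against DC1b cells 0 of the 34 were called by edgeR and 1, Cd244a, by DESeq2, and 3 had an unadjusted p under 0.05.

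Between TLI and untreated mice, edgeR called 1 of the 34 in DC1b cells and 0 in the other subsets. Of all genes it called 0.0102%, 0.413%, 0.0612% and 0.0255% in DC1a, DC1b, DC2 and DC3 cells. Unadjusted p was under 0.05 for 4, 8, 5 and 5 of the 34 in the same order. DESeq2 called 4, 6, 2 and 1 of them, where it called 719 to 1267 of all genes per comparison. Fyn, the kinase that SAP recruits, was at 268 and 275 CPM in untreated DC1b cells and at 23.1 to 57.0 CPM in TLI DC1b cells, a log2 difference of -2.83 (SE 0.44, adjusted p = 0.0087, edgeR). In the other untreated subsets Fyn was at 22.9 to 68.3 CPM. The call was lost without either untreated DC1b pool (edgeR adjusted p = 0.0744 and 0.0797) and with TLI pools 1 and 2 alone against the untreated pools of their batch (-2.72, edgeR adjusted p = 0.103), and the plasmacytoid DC markers were high in the same libraries. Cd84, a self-binding SLAM receptor, was at 12.0 to 68.0 CPM in TLI DC1b cells and at 1.48 to 5.69 CPM in TLI DC1a cells, a difference of 3.54 (SE 1.29) that missed the threshold (edgeR adjusted p = 0.232).

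The genes whose levels ran most like the members' were sought by Pearson's r on log2 CPM over the 23 libraries, as a description over libraries that share subset, pool and batch. For Sh2d1b1 they were Ifi203 (r = 0.92), S100a4 (0.91) and Ms4a4c (0.90). Like Sh2d1b1, S100a4 had a mean of 9.8 CPM in TLI DC1a cells against 586 in DC1b and 1272 in DC2 cells, and Ifi203 one of 8.64 against 93.8 and 165 CPM. For Cd48 they were Rgs18 (0.86), Lgals1 (0.84) and Emp3 (0.82), and for Slamf8 Cxcl16 (0.89), Tmem134 (0.87) and Cd9 (0.85). Cxcl16 had 349 CPM in TLI DC1a cells and 28.8 in TLI DC2 cells. Slamf7 was nearest to Acox3 (0.74), H2-DMa (0.74) and Cdk9 (0.73), Slamf9 to Fam3c (0.77), Rgl1 (0.74) and Cd53 (0.73), and Slamf6 to Pecam1 (0.75), Sesn2 (0.75) and Obsl1 (0.74). Ly9 ran with Gm9240 (0.81), Fkbp4 (0.77) and Slc38a7 (0.76). The genes nearest to Sh2d1a, namely Gm20069 (0.94), Gm27162 (0.87) and the T cell receptor segment Trbj1-1 (0.86), had means of at most 2.5 CPM in any group and, like Sh2d1a, were at 0 in untreated DC1a and DC1b cells.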

How the data were processed

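Cells were sorted from spleens of pooled mice, and cDNA was made with the SMARTseq v4 UltraLow Input kit, which does not mark strand. Per the labels and the study's methods, the authors trimmed reads with Trimmomatic, aligned them to GRCm38 with HISAT2 and deposited estimated counts per gene from StringTie, which are whole numbers, unscaled for depth or length. The design had assumed plain counts. Symbols for 47224 of 47729 identifiers, and positions, came from GENCODE M21, and the 505 others stayed in the tests.

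Libraries were scaled by TMM and tested in 1 edgeR 4.0.16 quasi-likelihood fit of all 23 libraries (R 4.3.3) with a term per group and one for batch, after edgeR's filter on low counts, which kept 19597 genes and all 10 members. The threshold was an adjusted p of 0.05. DESeq2 1.42.0, which the authors used, and limma 3.58.1 gave alternatives. On simulated counts for TLI DC1b against DC1a cells (18853 genes), edgeR recovered 15 of 100 4-fold and 51 of 100 16-fold changes with 1 false call, and DESeq2 recovered 40 and 80 with 162 false calls. The counts were drawn with the spread that edgeR estimated, around 1 mean per gene, without batch or pool effects. Only genes over 100 expected counts were changed. This setting may favor edgeR and does not give the error of either tool on the real libraries. The biological coefficient of variation was 1.08 with 14 residual degrees of freedom, and nothing says more about pools than their numbers, so p-values measure the spread between pools. CPM use TMM-scaled library sizes. A gene was over the floor with more than 3 counts.

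The members and all lists were chosen with earlier results of these data known. All members are named. From the pathway list, the 2 largest called changes in each direction per comparison are named, and likeness gives the 3 highest r for members with a mean of 5 CPM in any group, on log2 CPM with a prior count of 2. Motifs were chosen after the values were seen. Pool numbers in the labels pair subsets of the same mice. Residuals of same-numbered libraries had a median correlation of -0.09 (21 pairs, TLI) and 0.0075 (12 pairs, untreated). No libraries were duplicates, since replicates differed by a chi-square of at least 80.1 per gene. Alternatives were other scaling, no filter, fewer libraries, no batch term, the pool as a block and leaving out each library.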

Additional observations from a re-analysis of the deposited data

Results flagged for a closer look

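In 5 of 29 tested sets of 4 libraries, each the values of 1 member in 1 TLI subset, the highest library stood apart from the other 3 by Dixon's criterion. In 3 of the 5 the other libraries were all at 0, so that any value above 0 meets the criterion, and the chance rate of about 1 in 20 bears only on the other 2. Sh2d1a in DC1b cells was at 7.76 CPM in TLI pool 1 and at 0 in the other pools. Slamf1 was at 0.419 CPM in DC1b cells and at 0.389 CPM in DC3 cells of TLI pool 3, with 0 in the other pools of each subset. Slamf7 in DC1a cells was at 378 CPM in TLI pool 2 against 275 to 287 CPM, and Slamf8 in DC3 cells was at 153 CPM in TLI pool 2 against 5.35 to 23.1 CPM.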

How the results depend on the processing

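Sh2d1b1 was called higher in DC1b and DC2 than in DC1a cells of TLI mice under every alternative run. Its DC3 call was lost in 1 setting, without DC1a cells of TLI pool 3. Between DC1b and DC1a cells the members called fell from 2 to 1 (Sh2d1b1) with no filter, with the 15 TLI libraries alone, without the batch term and with the mouse pool as a replicate block. Between DC2 and DC1a cells they fell from 2 to 1 in the same settings and with DESeq2 size factors. DESeq2 called 3 members in DC3 against DC1a cells (Sh2d1b1, Cd48 and Sh2d1b2), 1 in DC3 against DC1b and 1 in DC3 against DC2 cells. For TLI against untreated mice it called 1 in each of DC1b, DC2 and DC3 cells, and 1 for an effect that differs among subsets, in place of 0. With no filter, Slamf9 was the 1 member called in DC3 cells and for the differing effect. Leaving out each library gave 1 to 2 members in DC1b against DC1a, 1 to 2 in DC2 against DC1a and 0 to 2 in DC3 against DC1a cells (2 without DC3 cells of TLI pool 2), and 0 in all other comparisons. Over all genes, TLI subset pairs gave 42 to 666 calls with edgeR and 975 to 2450 with DESeq2, and the 4 treatment comparisons 2 to 81 and 719 to 1267. The Fgr calls in DC3 cells were lost with the 15 TLI libraries alone (edgeR adjusted p = 0.0591 and 0.06), and that of Fyn with DC1b libraries alone (0.373). The cause of these shifts was not tested. The block changed no other member call. Scaled by library totals, levels moved by more than 1 SD for Slamf1 (0.131 CPM), Slamf8 (38.9 CPM) and Slamf9 (161 CPM) in untreated DC1b cells, Slamf6 (11.7 CPM) in untreated DC1a cells and Slamf7 (303 CPM) in untreated DC3 cells, all in groups of 2. For the called differences of Sh2d1b1, Slamf7, Cd48, Cd244a, Fgr and Fyn, no alternative reversed the direction. Of 16 printed differences that missed the threshold, 12 kept their sign in all 29 or 30 settings, while the 3 of Ly9 (in 8, 9 and 2 of 29) and that of Sh2d1b1 between DC2 and DC1b cells (in 4 of 29) changed it. Genes under the floor of 3 counts, such as Slamf1 and Sh2d1b2 in most libraries, cannot be told from absent at this depth. The libraries were also amplified from small numbers of sorted cells, a limit that the floor does not cover.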
